A study of Mus musculus with 8 samples.

Results

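The S100 calcium-binding proteins were represented by 10 genes, S100a1, S100a4, S100a6, S100a7a, S100a8, S100a9, S100a10, S100a11, S100a13 and S100a16, of 19938 genes measured. Each gene was read from a probe set annotated with its symbol alone. Where a gene had more than 1 such probe set, the brightest on average was taken, which concerned S100a11. These genes were selected on their measured values, the levels by group together with the mean over all 8 arrays, so their levels are given as a description.

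RNA came from the 3134 line, mouse mammary cells that descend from C127 and so from a tumour of an RIII mouse. All groups carried A-fos, which dominantly blocks DNA binding by AP-1 (dimers of Fos and Jun proteins), together with tTa, the tetracycline regulator of the Tet-Off switch, both stably integrated. The 4 groups of 2 arrays crossed no hormone (0 h) or 4 h of 100 nM dexamethasone, which activates the glucocorticoid receptor, with the tetracycline state in the sample titles (1 ug/ml tetracycline in the protocol text). All cells had spent 48 h in medium with charcoal-treated serum. The study asked how hormone induction depends on AP-1 binding. The treatment protocol text gives the opposite tetracycline state from the title in all 8 samples, so the arms take the names no-titled and plus-titled here. The labels leave unsettled which arm expressed A-fos and whether the line is a single clone. They do not say either that replicates came from separate cultures, and p-values then reflect the spread of these samples alone, which may be technical.

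The median log2 signal per array was 5.36 to 5.47, and replicates correlated at 0.9932 to 0.9956 across genes. The untreated plus-titled pair differed most, with 24 genes over 2-fold apart against 4 to 11 in the other pairs. Luminal epithelial markers had mean signals of 4.39 to 5.86 (6 genes, Krt8, Krt18 and Epcam among them) and basal markers 4.67 to 5.79 (4 genes). Markers of fibroblasts or mesenchyme had 5.82 to 12.8 (7 genes). All 5 glucocorticoid-induced control genes (Fkbp5, Tsc22d3, Per1, Sgk1 and Lcn2) rose in both arms, by a median of 2.64 (no-titled) and 3.32 (plus-titled) on the log2 scale. Over all genes, 1.03% and 0.823% were called higher there by limma at an adjusted p under 0.05. The 5 were listed with earlier results of these data known, so their rise is a description.

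S100 proteins are small EF-hand proteins that mostly work as dimers. Calcium opens a surface on the dimer that grips target proteins such as annexins, myosin and cytoskeletal regulators. Several are also released from cells and signal through receptors such as RAGE (encoded by Ager) and TLR4. In mammary tumours the family is known for S100A4, which is linked to metastasis, and for S100A7 (psoriasin), of which mouse S100a7a is the counterpart. S100a8 and S100a9 form calprotectin, an abundant protein of neutrophils.

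S100a7a was the S100 gene with a dexamethasone response that passed the test, a rise in the no-titled arm. Its change in the plus-titled arm was also above 0 but did not pass. The difference between these responses did not pass either (limma adjusted p = 0.271). S100a4, S100a7a and S100a6 were lower, and S100a1 higher, in the plus-titled arm without hormone. At 4 h the arm difference of S100a7a was 4.01-fold. S100a8, S100a9, S100a11, S100a13 and S100a16 did not pass the test in any comparison. A gene is called here when limma's adjusted p over all 19938 genes is under 0.05. All adjusted p-values come from 1 limma model over the 8 arrays, and differences between arms are plus-titled minus no-titled.

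**Figure D1:**
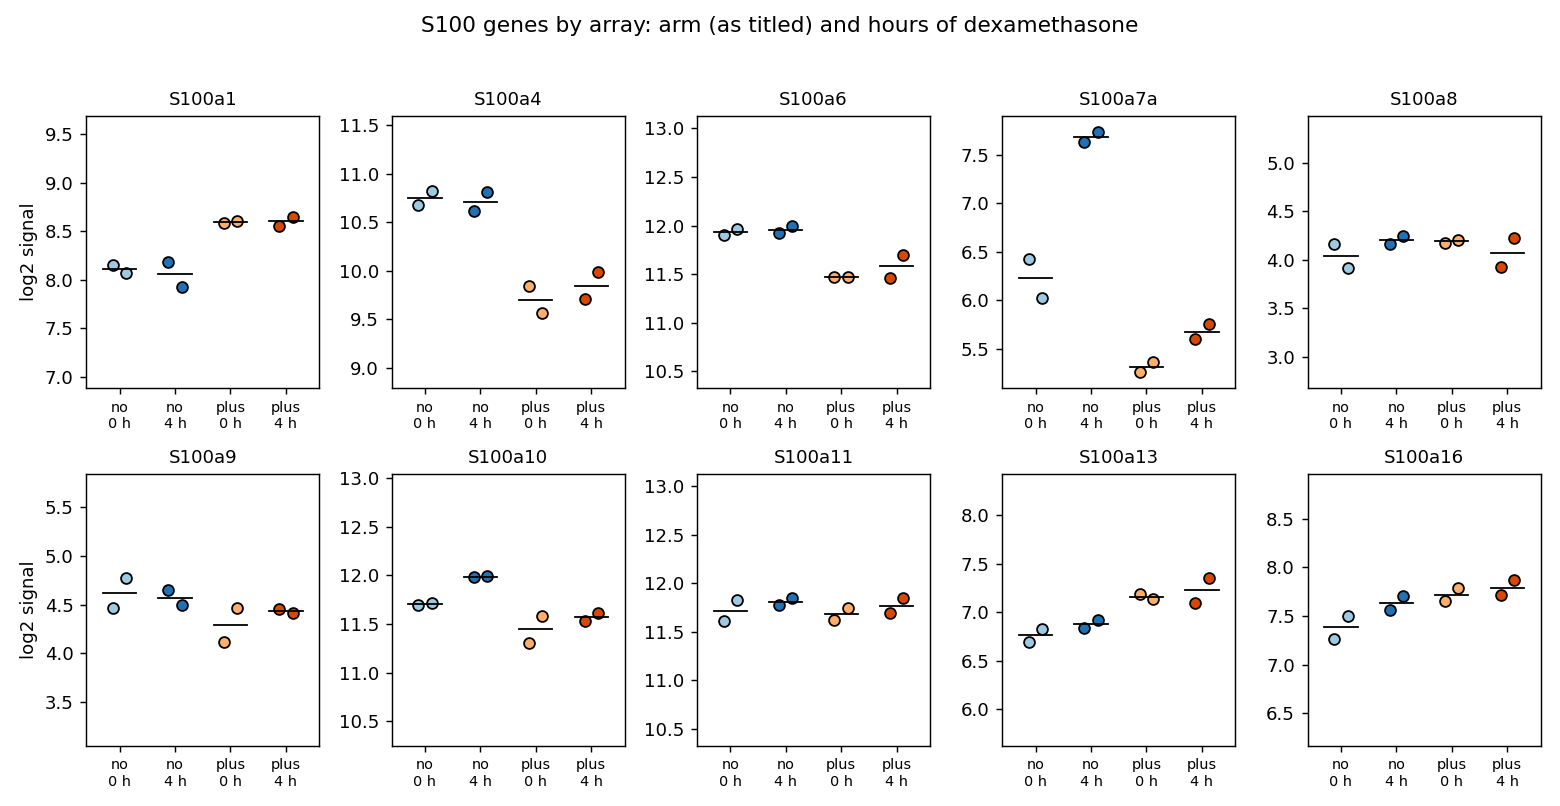
Log2 signal (vertical axis, the same span in every panel) of the 10 S100 genes in each of the 8 arrays, by arm as titled and hours of dexamethasone. Points are arrays and lines are group means (n = 2). S100a7a at 4 h in the no-titled arm lies between 7.63 and 7.74, above all its other arrays, and S100a4 is lower in all 4 plus-titled arrays.

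S100a7a, the psoriasin counterpart, belongs to the epidermal, secreted branch of the family. In the no-titled arm its signal was 6.43 and 6.03 at 0 h and 7.63 and 7.74 at 4 h (log2). In the plus-titled arm it was 5.26 and 5.37 at 0 h and 5.60 and 5.75 at 4 h. Both treated no-titled arrays were higher than every other array, and no group overlapped another. The group means ranked from 5.31 ± 0.08 (SD, n = 2; plus-titled, 0 h) through 5.68 ± 0.11 (plus-titled, 4 h) and 6.23 ± 0.28 (no-titled, 0 h) to 7.68 ± 0.08 (no-titled, 4 h). The lowest pair of neighbours in that order did not pass the test, and the middle pair was not a comparison of the design.

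Dexamethasone raised S100a7a 2.74-fold in the no-titled arm (log2 1.45 ± 0.14, SE; 95% interval 1.14 to 1.77; limma adjusted p = 0.00026). It was the 1 S100 gene called of 10, where 1.43% of all genes tested were called (1.03% higher). The call held in all 8 fits that left out 1 array, at 1.25 to 1.66. In the plus-titled arm the change was 0.36 ± 0.14 (95% interval 0.05 to 0.68; adjusted p = 0.394) and did not pass. There 0 of 10 S100 genes were called by limma and 1.1% of all genes were. At an unadjusted p under 0.05 that count over all genes was 1990, with S100a7a the 1 of these 10 among them.

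The difference between these responses of S100a7a was -1.09 ± 0.20 (log2, SE; 95% interval -1.53 to -0.65). It ranked 16 among 19938 genes by p and did not pass over all genes (limma adjusted p = 0.271). Over the fits without 1 array its adjusted p ranged from 0.41 to 0.82, and over the other alternatives from 0.0713 to 0.378. In that comparison 0 of 10 S100 genes and 0.00502% of all genes were called, the latter 1 gene, while 1018 genes had an unadjusted p under 0.05. S100a7a was the 1 of these 10 among them. The other 9 S100 genes had differences between -0.28 (S100a8) and 0.19 (S100a9).

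The arms differed in S100a7a both before and after hormone. Without hormone it was lower in the plus-titled arm by 0.91 ± 0.14 on the log2 scale (-0.91, adjusted p = 0.00322), and at 4 h by 2.00 (-2.00 ± 0.14; 95% interval -2.32 to -1.69; adjusted p = 8.37e-05). At 4 h it ranked 7 among all genes by p. These calls held in every fit without 1 array. No probe set with 1 symbol represented the related gene S100a7l2, so cross-reading was not tested.

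The stretch before the start of S100a7a is shown because this gene had the largest changes of the family, with those of S100a4 and S100a6, its neighbours, and that of S100a11, which did not pass in any comparison. Each is the 250 bases before the start in RefSeq's promoter table (GRCm38.p6), read 5′ to 3′ on the gene's strand, which is the plus strand for all 4. They lie at chr3:90654052-90654301, chr3:90603520-90603769, chr3:90612644-90612893 and chr3:93520246-93520495. Capitals mark the letters of an AP-1 element (TGACTCA, read as TGAGTCA on the other strand), a glucocorticoid receptor hexamer (AGAACA) or a TATA box (TATAAA), searched on both strands.
S100a7a: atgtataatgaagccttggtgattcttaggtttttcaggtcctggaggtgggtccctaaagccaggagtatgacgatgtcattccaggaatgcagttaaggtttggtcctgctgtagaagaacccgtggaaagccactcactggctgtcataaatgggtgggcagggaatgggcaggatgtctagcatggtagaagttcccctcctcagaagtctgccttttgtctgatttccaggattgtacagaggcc
S100a4: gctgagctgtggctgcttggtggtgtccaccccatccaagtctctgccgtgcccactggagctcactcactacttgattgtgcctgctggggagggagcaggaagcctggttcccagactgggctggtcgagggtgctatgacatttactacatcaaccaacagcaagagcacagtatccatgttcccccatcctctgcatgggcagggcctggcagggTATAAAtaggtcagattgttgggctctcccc
S100a6: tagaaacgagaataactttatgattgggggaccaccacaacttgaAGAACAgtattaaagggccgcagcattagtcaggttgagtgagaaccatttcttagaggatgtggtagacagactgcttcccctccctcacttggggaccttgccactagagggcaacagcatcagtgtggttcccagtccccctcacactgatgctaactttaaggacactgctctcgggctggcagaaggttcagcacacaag
S100a11: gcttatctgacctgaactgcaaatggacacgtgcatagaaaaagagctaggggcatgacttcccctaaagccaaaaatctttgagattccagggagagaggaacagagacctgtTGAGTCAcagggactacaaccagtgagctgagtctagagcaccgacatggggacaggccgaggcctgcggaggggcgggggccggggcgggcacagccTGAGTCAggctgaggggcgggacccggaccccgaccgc
Of the 10 S100 genes 9 had an entry in that table, in 10 windows of 300 bases that run from 250 before to 50 after a start. TGACTCA was in 1 of these windows, that of S100a11, where it begins 136 and 38 bases before the start, and in 5.20% of all 32851 windows. The full palindromic glucocorticoid response element, of 2 such hexamers that face each other with 3 free bases between them, was in 0 of 10, and in 3 windows of the whole table. AGAACA was in the window of S100a6 and in 19.0% of all windows. TATAAA was in those of S100a4, S100a8 and S100a9 and in 13.6% of all windows. It begins 31 bases before the start in S100a4 and 30 before it in S100a8, but at the start itself in S100a9. The searched letters were not in the window of S100a7a, which says nothing of the factors elsewhere.

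S100a4, the metastasis-linked member that binds non-muscle myosin, had the most negative arm difference of the family without hormone. Its signal was 10.68 and 10.83 in the no-titled arm and 9.84 and 9.56 in the plus-titled arm at 0 h. At 4 h it was 10.62 and 10.81 against 9.71 and 9.98. All 4 plus-titled arrays were below all 4 no-titled arrays. The difference was -1.05 ± 0.14 (log2, SE) at 0 h, or 2.07-fold lower (adjusted p = 0.00164). At 4 h it was -0.86 ± 0.14 (adjusted p = 0.00423). The 0 h and 4 h arm comparisons share no arrays, but they share the 2 arms and 1 estimate of the spread. Dexamethasone changed the signal by -0.04 (95% interval -0.35 to 0.27) in the no-titled arm and by 0.14 (-0.17 to 0.46) in the plus-titled arm, and neither passed.

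S100a6 (calcyclin), the next member on the chromosome after S100a5, binds the calcyclin-binding protein and several annexins. At 0 h its signal was 11.90 and 11.97 in the no-titled arm and 11.47 in both arrays of the plus-titled arm, and the groups did not overlap. The difference of -0.46 ± 0.11 passed (adjusted p = 0.0309). It was lost without any 1 of the 4 untreated arrays (adjusted p between 0.0832 and 0.177), with cyclic loess (0.0598) and with only the arrays compared (0.0512). At 4 h the signal was 11.92 and 11.99 against 11.46 and 11.70, and the difference of -0.38 ± 0.11 did not pass (adjusted p = 0.0672). It did pass with trend and robust variance (0.00927) and without the dimmest 25% of genes (0.0394), in a range up to 0.146 over the alternatives that kept all arrays and up to 0.335 over those without 1 array.

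**Figure D2:**
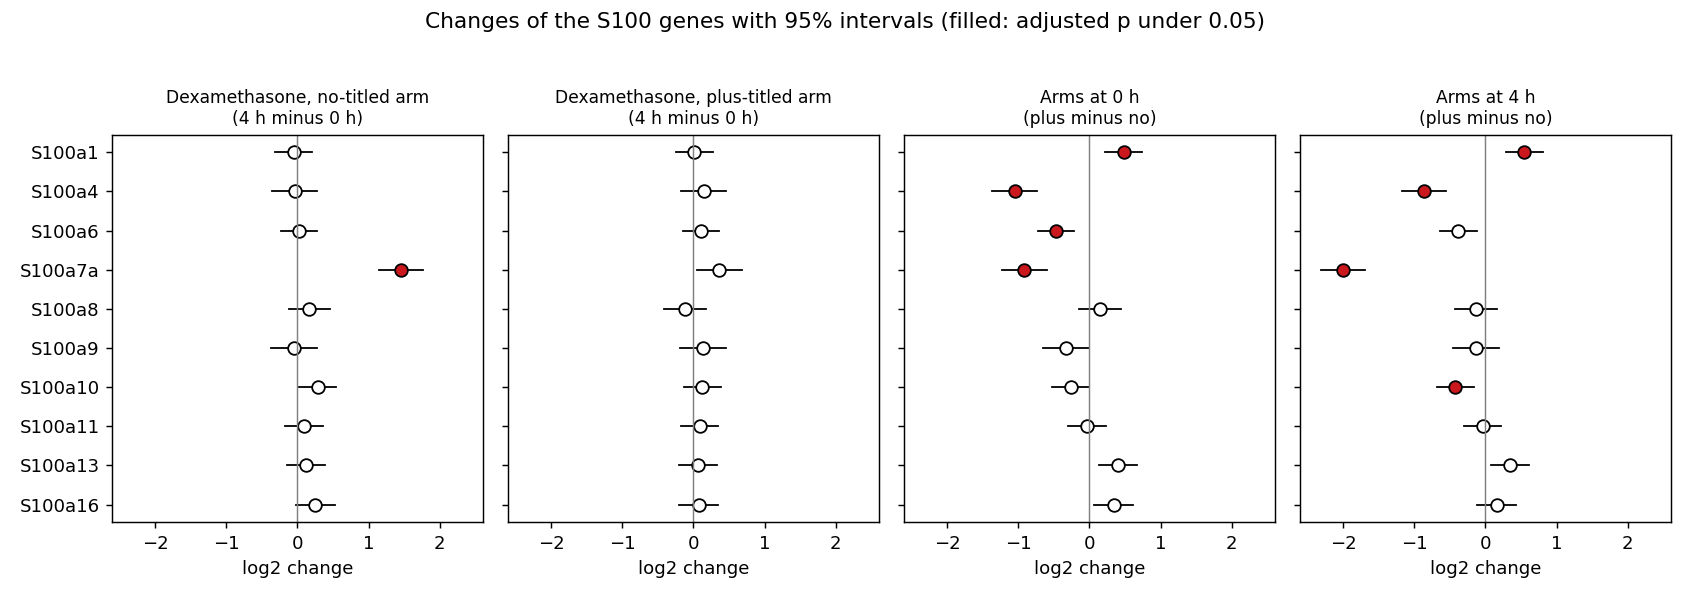
Log2 changes (horizontal axes) of the 10 S100 genes in the 4 comparisons, with 95% intervals from the limma model over 8 arrays. Filled points passed at an adjusted p under 0.05: S100a7a in the no-titled response, S100a1, S100a4, S100a6 and S100a7a between the arms at 0 h, and S100a1, S100a4, S100a7a and S100a10 at 4 h.

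S100a10 (p11) and S100a11 are the annexin-binding members. S100a10 is unusual in needing no calcium, and with annexin A2 it forms a complex on the cell surface that assembles plasminogen and its activators. The signal of S100a10 was 11.70 and 11.71 at 0 h and 11.99 in both arrays at 4 h in the no-titled arm. In the plus-titled arm it was 11.31 and 11.58 at 0 h and 11.53 and 11.61 at 4 h. Every plus-titled array was below every no-titled one. The response in the no-titled arm, 0.28 ± 0.12, did not pass (adjusted p = 0.488). The arm difference was -0.26 ± 0.12 at 0 h (adjusted p = 0.22) and passed narrowly at 4 h, at -0.42 ± 0.12 (adjusted p = 0.0493). Leaving out 1 array removed that call in 6 of 8 cases (adjusted p between 0.08 and 0.203), as did cyclic loess (0.115) and the use of the dimmest probe set of each gene (0.0521).

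S100a11, an annexin A1 partner, had the smallest range of the 10 genes over the 8 arrays, 11.61 to 11.85. Its arm differences were -0.04 at 0 h (95% interval -0.30 to 0.23) and -0.04 at 4 h (-0.31 to 0.22), and none of its 5 comparisons passed. Its other probe set, with signals of 11.42 to 11.73, gave -0.10 and -0.05.

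S100a1, known as a regulator of calcium pumps and release channels in muscle, went the other way between the arms. Its signal was 8.15 and 8.07 at 0 h and 8.18 and 7.93 at 4 h in the no-titled arm. The plus-titled arm had 8.58 and 8.60 at 0 h and 8.56 and 8.64 at 4 h. All 4 plus-titled arrays were above all 4 no-titled arrays. The difference was 0.48 ± 0.12 at 0 h (adjusted p = 0.029) and 0.54 ± 0.12 at 4 h (adjusted p = 0.0158). The call at 0 h was lost without any 1 of the 4 untreated arrays (adjusted p between 0.0778 and 0.172) and with cyclic loess (0.0577). At 4 h it was lost without either array of the treated plus-titled group (0.0548 without replicate 1, 0.11 without replicate 2) and without replicate 2 of the treated no-titled group (0.133). Its hormone responses were -0.05 and 0.01.

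S100a13 helps export FGF1 and IL-1 alpha by a route outside the secretory pathway. It had 6.70 and 6.83 at 0 h and 6.84 and 6.92 at 4 h in the no-titled arm. The plus-titled arm had 7.19 and 7.13 at 0 h and 7.09 and 7.35 at 4 h. The arms did not overlap at either time. The difference of 0.40 ± 0.12 at 0 h missed the threshold (adjusted p = 0.0681), as did 0.34 ± 0.12 at 4 h (adjusted p = 0.114). At 0 h it passed with trend and robust variance (0.0357) and without the dimmest 25% of genes (0.0406), in a range up to 0.121 over the alternatives that kept all arrays and up to 0.324 over those without 1 array.

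The windows of S100a1 and S100a13 share 204 bases, since the genes lie head to head on opposite strands. The 104 bases that precede both starts, chr3:90514331-90514434 (GRCm38.p6, plus strand, toward S100a13), are shown because both genes had higher signals in the plus-titled arm. None of the searched letters is in them.
S100a1 and S100a13: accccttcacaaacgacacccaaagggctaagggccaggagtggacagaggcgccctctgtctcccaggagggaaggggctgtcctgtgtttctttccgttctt

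S100a16, a widely expressed member, had 7.27 and 7.50 at 0 h and 7.56 and 7.71 at 4 h in the no-titled arm. The plus-titled arm had 7.65 and 7.79, and then 7.72 and 7.87 at 4 h. Groups did not overlap between the arms at either time, nor between 0 h and 4 h in the no-titled arm. The arm difference was 0.34 ± 0.12 at 0 h (adjusted p = 0.128) and 0.16 ± 0.12 at 4 h (adjusted p = 0.527), and the no-titled response was 0.25 ± 0.12 (adjusted p = 0.609).

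S100a8 and S100a9, the calprotectin subunits, gave low signals, 3.92 to 4.24 and 4.12 to 4.78 over the 8 arrays. The mean of S100a8 lay in the lowest 25% of all genes (below 4.34), so that the alternative without dim genes did not measure it. Neither gene passed in any comparison. At 0 h S100a9 had -0.33 ± 0.15 (adjusted p = 0.21) and S100a8 0.15 ± 0.13 (adjusted p = 0.562) between the arms. Of 8 neutrophil markers, 5 were in the same lowest 25%, and their mean signal per array over all 8 lay between 3.95 and 4.14. Limma called 0 of the 8 in any comparison, where 0 or 1 had an unadjusted p under 0.05. Over all genes the called shares ran from 0.00502% to 9.61% by comparison, so nothing is read from this count of 8 mostly dim genes.

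Between the arms without hormone, 4 of 10 S100 genes were called, 1 higher and 3 lower, against 9.38% of all genes (6.2% higher and 3.18% lower). At 4 h 4 were called, again 1 higher and 3 lower, against 9.61% of all genes (5.29% and 4.32%). Without 1 array 2 to 4 were called at each time. S100a4 and S100a7a were called in all 8 fits at both times. Groups did not overlap for 4 genes higher and 5 lower at 0 h and for 3 and 5 at 4 h. Over all genes, 25% and 24.9% did so at 0 h and 24.4% and 27.2% at 4 h. In the hormone comparisons 5 genes were higher and 0 lower without overlap in the no-titled arm (21.1% and 19.4% of all genes), and 1 was higher and 0 lower in the plus-titled arm (16.9% and 19.3%). The median change of the 10 genes was -0.15 at 0 h and -0.13 at 4 h, beside -0.02 and -0.01 over all genes. For the hormone responses it was 0.10 in both arms, beside 0.01 (no-titled) and -0.01 (plus-titled). The 10 genes were selected on their measured values, so these counts and medians are a description and not a test of the family.

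Some markers of cell types also differed between the arms, where 9.38% (0 h) and 9.61% (4 h) of all genes were called. Of 4 basal markers 1 was called at each time, Krt14 (-1.39 at 0 h and -1.41 at 4 h), and the other 3 (Krt5, Krt17 and Trp63) had -0.31 to 0.13 at 0 h. The mean of that list per array was 5.26 to 5.43 in the untreated no-titled and 4.92 to 4.94 in the untreated plus-titled group. Of 6 luminal markers limma called 0 at either time (2 and 1 had an unadjusted p under 0.05), and all 6 had values below 0, with medians of -0.16 and -0.18. Of 7 mesenchymal markers, Col1a2 was lower (-0.70 and -0.65) and Pdgfrb higher at 0 h (0.52), with list means of 9.33 to 9.36 and 9.04 to 9.21 at 0 h. In the no-titled arm all 7 mesenchymal markers had lower signals at 4 h than at 0 h without overlap (median -0.11). Over all genes that share was 19.4%. Limma called 0 of the 7 there, beside 1.43% of all genes, and 1 had an unadjusted p under 0.05. In the plus-titled arm 1 marker was called after hormone, Pdgfrb (-0.75, adjusted p = 0.0191), beside 0.281% of all genes called lower. The part of these in the S100 changes was not tested. In RNA from whole cultures, fewer cells of a type and less RNA per cell cannot be told apart.

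Along chromosome 3 the S100 genes form an unbroken run of 12 tested genes from S100a1 to S100a9, of which 8 are described above. The others are S100a14, S100a3, S100a2 and S100a5. S100a11 and S100a10 follow, next to each other, after 48 further tested genes. The genes at one end of the run, S100a1, S100a13, S100a14 and S100a16, had arm differences of 0.48, 0.40, 0.08 and 0.34 at 0 h, with S100a1 called. The next 6, from S100a3 to S100a7a, had values from -1.05 to -0.08, with S100a4, S100a6 and S100a7a called. At 4 h the same 4 had 0.54, 0.34, 0.03 and 0.16. Those 6 then had -2.00 to 0.13, with S100a5 above 0. The last genes of the run, S100a8 and S100a9, had 0.15 and -0.33 at 0 h and -0.13 and -0.14 at 4 h, so that signs did not follow position throughout. No test of position was made.

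**Figure D3:**
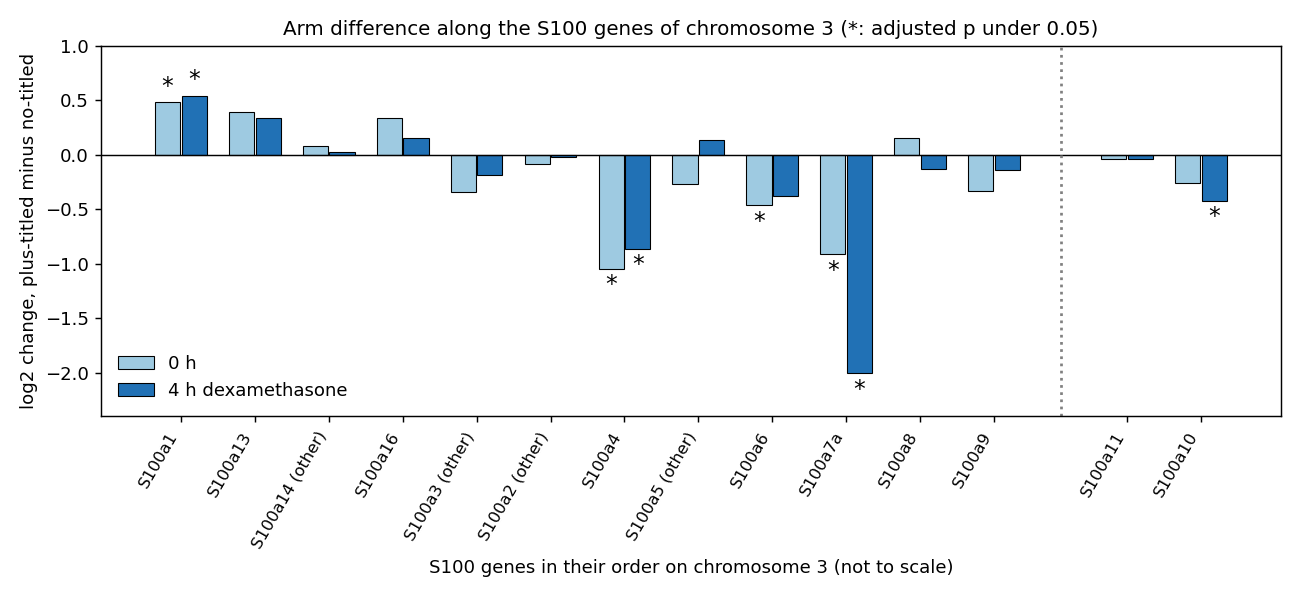
Arm difference (plus-titled minus no-titled, log2) of 14 S100 genes in their order on chromosome 3, at 0 h and at 4 h of dexamethasone. Stars mark an adjusted p under 0.05, the dotted line stands for 48 other tested genes, and "other" marks genes outside the 10. Bars are above 0 at the S100a1 end and most negative at S100a4 and S100a7a.

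Of 11 symbols listed for other S100 family genes, 7 matched a measured gene. Of these, 4 (S100a2, S100a14, S100b and S100z) had means in the lowest 25% of all genes. Between the arms the median change of the 7 was -0.12 at 0 h and -0.02 at 4 h. Among the 7, limma called 0 in any of the 5 comparisons, where 0 to 2 had an unadjusted p under 0.05. Between the arms 9.38% and 9.61% of all genes were called, a share at which 7 genes would hold fewer than 1, so nothing is read from the count. The smallest adjusted p between the arms was that of S100a3, at -0.34 ± 0.11 at 0 h (adjusted p = 0.0884). Of 7 listed fused-type S100 genes, which encode cornified-envelope proteins such as repetin, 6 were measured, 2 of them in the lowest 25%. Limma called 0 of the 6 in any comparison, where 0 or 1 had an unadjusted p under 0.05. Beside the 9.38% and 9.61% of all genes called between the arms, nothing is read from that 0 either.

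Of 24 annexins and other intracellular partners, 23 were measured. At 0 h 3 were higher and 1 lower (median 0.10, beside -0.02 over all genes), and at 4 h 2 and 1 (median 0.08, beside -0.01). Over all genes 6.2% were higher and 3.18% lower at 0 h, and 5.29% and 4.32% at 4 h. Ezr, which encodes the membrane linker ezrin, was higher by 1.22 ± 0.12 at 0 h (adjusted p = 0.000407) and 0.96 at 4 h. Anxa6, an annexin gene, was higher by 1.00 and 0.93. S100pbp, which encodes an S100P-binding protein, was higher at 0 h by 0.42 (adjusted p = 0.0361). Ahnak, the giant scaffold that binds the S100a10 and annexin A2 complex, was lower, at -0.50 (adjusted p = 0.0208) and -0.57 (adjusted p = 0.0108). Anxa2 itself had -0.26 at both times (adjusted p = 0.236 and 0.228) and did not pass. In the hormone responses 0 of these 23 were called by limma in either arm, beside 1.43% and 1.1% of all genes, and 1 had an unadjusted p under 0.05, in the no-titled arm.

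Of 13 extracellular receptor and signalling genes 12 were measured. At 0 h 2 were higher (6.2% of all genes were) and at 4 h 3 (5.29%), with 0 lower. The median change of the 12 was -0.04 at 0 h and 0.09 at 4 h, beside -0.02 and -0.01 over all genes. Alcam, an adhesion molecule proposed as a receptor of S100a8 and S100a9, had 5.90 and 6.10 in the untreated no-titled group and 7.49 and 7.54 in the untreated plus-titled group. It was higher by 1.51 ± 0.11 at 0 h (adjusted p = 8.51e-05) and 1.46 at 4 h. Mcam, another adhesion receptor of that kind, was higher by 1.35 and 1.19. Bsg (basigin), a receptor of S100a9, was higher at 4 h by 0.38 (adjusted p = 0.0447). Ager had -0.12 and 0.12 and Tlr4 -0.26 and -0.04, none of which passed.

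Of 9 calcium pump and channel genes bound by S100 proteins, 1 was called, the acid-sensing channel gene Asic1, higher by 0.60 ± 0.11 at 0 h (adjusted p = 0.00775). That count is near the share of all genes, 9.38%, called in the comparison, and the median of the list was -0.08 at 0 h and 0.06 at 4 h. Of 7 genes of the plasminogen system that works at S100a10, 6 were measured, with median hormone responses of -0.18 (no-titled) and -0.23 (plus-titled) and median arm differences of -0.19 at 0 h and -0.16 at 4 h. In the no-titled arm dexamethasone lowered 2 of them (0.401% of all genes fell), Plau (urokinase; -1.70 ± 0.13) and Plaur (its receptor; -1.20 ± 0.13), and in the plus-titled arm the same 2 (-1.57 and -0.82, beside 0.281% of all genes). Plat, the tissue activator, had -0.31 and -0.23 and did not pass. At 0 h Plaur was lower in the plus-titled arm (-0.71, adjusted p = 0.00862), where 3.18% of all genes were. Plgrkt, a plasminogen receptor gene, was higher at 0 h (0.68 ± 0.18, adjusted p = 0.0419), as were 6.2% of all genes. At 4 h limma called 0 of the 6 plasminogen genes, of which 3 had an unadjusted p under 0.05. Of all genes 9.61% were called at 4 h, and with 6 genes nothing is read from that 0.

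**Figure D4:**
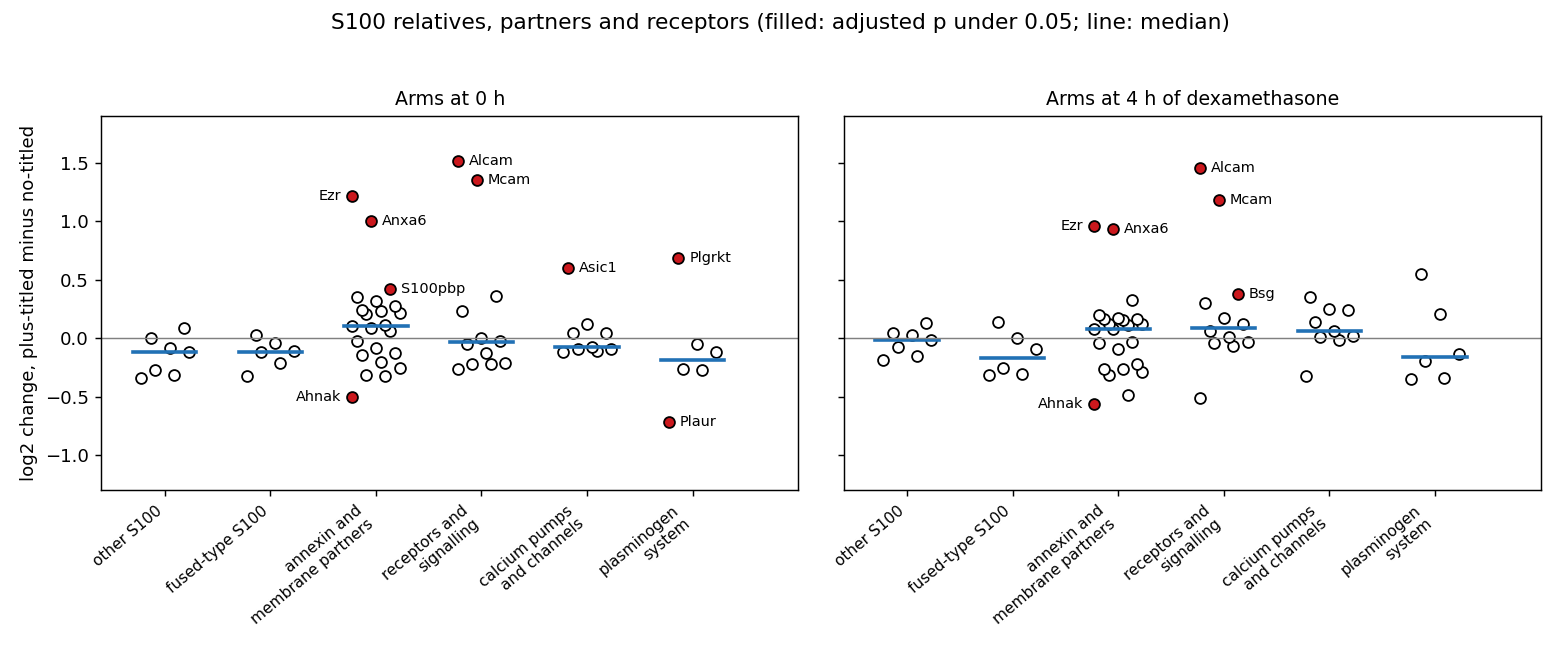
Arm difference (plus-titled minus no-titled, log2) of relatives, partners and receptors of the S100 proteins at 0 h and at 4 h of dexamethasone. Each point is a gene, filled and named where the adjusted p was under 0.05, and lines are list medians. Alcam, Mcam, Ezr and Anxa6 are highest and Ahnak and Plaur lowest among the named genes.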

How the data were processed

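Gene expression was measured on 8 Affymetrix arrays. The authors deposited log2 signal per probe set, made with Affymetrix Expression Console by RMA per the submitters' processing notes (version not given in the sources used here). This method gives arrays nearly the same distribution, so differences are relative to other genes. Probe sets differ in brightness at equal RNA, so signals of different genes only place a gene roughly among dim or bright probe sets and were not tested against each other. The number of arrays limits the precision.

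Of 28888 probe sets, 21789 had 1 gene symbol in the platform annotation, 1621 several and 5478 none in the table used. Symbols were updated by gene number, and the probe set with the highest mean stood for each of 19938 genes. One limma 3.58.1 model (R 4.3.3) with a mean per group was fitted to all 8 arrays (4 residual degrees of freedom, prior 6.64), with Benjamini-Hochberg adjustment over all genes. On data simulated with the fitted spread, 67 genes were changed 1.5-fold, 67 2-fold and 66 4-fold in each comparison. The model called 25.4% to 34.3% of 1.5-fold changes and 91.0% to 98.5% of 2-fold changes between 2 groups. Many more genes were called between the real arms (9.38% and 9.61%), so these rates may not hold there. For the difference of responses the model called 2.99% of 1.5-fold and 55.2% of 2-fold changes. A change that did not pass is therefore not read as absent. Promoters and gene order came from RefSeq tables (GRCm38.p6).

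The S100 genes and all lists were chosen with earlier results of these data known. Named were all 10 S100 genes, up to 4 called genes of a list with the largest change (or the 2 with the smallest p), the 2 genes most correlated with each called S100 gene, and genes singled out after their values were seen, among them Anxa2, Ager, Tlr4, Plat, Pglyrp4 and the other basal markers beside Krt14. Clone-type names were left out of the correlations. Alternatives were trend and robust variance, only the arrays compared, a replicate block, cyclic loess, centring on array medians, leaving out dim genes (the lowest 25%), the mean or dimmest probe set per gene and leaving out each array. Deviations from group means of arrays with the same replicate number correlated at -0.0191 to 0.133, so the numbers were not taken as pairs. Sequences of proteins were not used here.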

Additional observations from a re-analysis of the deposited data

How the results depend on the processing

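Among 50 changes of the S100 genes, 785 values under up to 16 alternatives each were 725 on the same side of the threshold with the same sign, 22 no longer past it, 4 newly past it and 34 of opposite sign. None of the 9 called changes turned sign, and the largest turned value was 0.103 in size. With cyclic loess the S100 genes called between the arms at 0 h fell from 4 to 2, since S100a1 and S100a6 were lost. Without 1 array the count was 2 to 4 at 0 h and 2 to 4 at 4 h. With the replicate block it was 4 at both times and no call of an S100 gene changed.

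Changes that turned sign in alternatives with all arrays were S100a1 in the plus-titled response with median centring (-0.015), S100a11 with cyclic loess at 0 h (0.039) and 4 h (0.043), and the difference of responses of S100a11 with cyclic loess (0.0048), the mean of probe sets (0.026) and the dimmest probe set (0.057). Without 1 array, the no-titled responses that turned ranged from -0.18 to 0.077 (S100a1), -0.14 to 0.056 (S100a4), -0.012 to 0.060 (S100a6), -0.21 to 0.10 (S100a9) and -0.018 to 0.20 (S100a11). The plus-titled responses ranged from -0.034 to 0.051 (S100a1), -0.0082 to 0.23 (S100a6), -0.27 to 0.036 (S100a8), -0.033 to 0.31 (S100a9), -0.015 to 0.26 (S100a10), -0.067 to 0.19 (S100a13) and -0.00029 to 0.14 (S100a16). Arm differences ranged from -0.14 to 0.073 (S100a11, 0 h), -0.28 to 0.020 (S100a8, 4 h) and -0.12 to 0.035 (S100a11, 4 h). Differences of responses ranged from -0.069 to 0.19 (S100a1), -0.032 to 0.20 (S100a6), -0.11 to 0.10 (S100a11) and -0.18 to 0.077 (S100a13). The cause was not tested. A fit without 1 array leaves a lone array in its group, assumed to vary like the others. Low signals of S100a8 and S100a9 limit what could be read for them.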

Other observations

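The genes next to the S100 run on chromosome 3 were compared in the same model. Before S100a1 lie Chtop, Snapin and Ilf2, with arm differences of -0.19, 0.32 and -0.17 at 0 h, none of which passed. After S100a9 lie Pglyrp4 and Pglyrp3, which encode peptidoglycan recognition proteins, and Lor, which encodes loricrin of the cornified envelope. Pglyrp4 had a dexamethasone response of 0.91 in the plus-titled arm (limma adjusted p = 0.0571) and -0.09 in the no-titled arm, and neither passed.

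For each S100 gene called in a comparison, the genes whose signal followed it most closely over the 8 arrays are given as a description. They were Esd (Pearson's r = 0.9966) and Lgals3 (0.9957), the galectin-3 gene, for S100a4. For S100a7a they were Adgra1 (0.9921) and Elof1 (0.9822), and for S100a1 they were Arap1 (0.9917) and Acad11 (0.9886). S100a6 was followed by Eef1b2 (0.9927) and H2bc3 (0.9888), and S100a10 by Il34 (0.9872) and Olfr1272 (0.974). The arrays fall into 2 arms, and each pair of genes was taken as the closest among the genes tested, clone-type names (such as Gm or Rik) aside. High values can arise from that choice alone.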
